A study of Mus musculus with 14 samples.

Results

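Dishevelled and the other core genes of the Wnt pathway were followed in polysome RNA from hippocampal parvalbumin (PV) neurons of mice after chronic social defeat stress (CSDS). The 9 genes were Lrp6, Dvl1, Dvl2, Dvl3, Axin1, Apc, Gsk3b, Ctnnb1 and Axin2, out of 39017 gene identifiers in the count table. The set was chosen from the measured values of Dvl3, which were lower in the susceptible libraries than in the others, so for Dvl3 the comparisons with susceptible mice are described without a test. The other 8 genes belong to the same pathway, and the stated reason for the choice names no values of theirs. The set was still chosen with earlier results of these data known. Whether the values of the 8 played a part is therefore not known. All 9 genes passed the filter on low counts, which kept 21298 genes.

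All mice were male, had a C57BL/6 background and carried both PV-Cre and a Cre-dependent EGFP-L10a transgene, and behavioral work began at 8–12 weeks of age. EGFP-L10a is a tagged ribosomal protein that PV-Cre switches on, so translating ribosome affinity purification (TRAP) recovers RNA from every cell of the hippocampus in which this Cre was active, whatever its subregion. In CSDS, a mouse is repeatedly attacked by a larger CD-1 aggressor, and the defeated mice were divided by a social interaction test into resilient (ratio above 1) and susceptible (ratio below 1) mice. TRAP libraries came from 4 non-defeated, 4 resilient and 3 susceptible mice, with both hippocampi of a mouse in 1 sample. Input was total hippocampal RNA of 3 samples from non-defeated mice, taken before TRAP, and input of defeated mice was not analysed here. Libraries are named by their group and the number in the sample name.

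Library totals ran from 64110214 to 94726962 counted reads. The label of the cells was checked against marker genes. The list for PV neurons held Pvalb, Kcnc1, Syt2, Erbb4, Gad1 and Gad2. Of these PV neuron markers, 6 of 6 were higher in TRAP than in input, and 6 of 6 markers of hippocampal excitatory neurons were lower. Of all genes, 27.4% were called higher and 27.6% lower. Oligodendrocyte and microglia markers were called lower in 6 of 6 each, astrocyte markers in 5 of 6, blood cell markers in 4 of 5 and choroid plexus markers in 3 of 5. Other interneuron markers were divided (2 higher, 4 lower). Endothelial markers had 2 of 6 called higher and 0 lower, and 0 of 6 thalamic markers were called. The summed level of the PV neuron markers was 3752–4134 normalized CPM (counts scaled to library size) in non-defeated, 3547–4195 in resilient and 3116–4330 in susceptible TRAP libraries, and 0 of the 6 differed between susceptible and resilient mice. Of 10 marker lists, 1 held called genes between susceptible and resilient mice: 4 of 5 blood cell markers (Hba-a1, Hba-a2, Hbb-bs, Hbb-bt and Alas2) were higher in susceptible than in resilient mice. Their summed level was 116–243 CPM in non-defeated, 129–599 in resilient and 890–1239 in susceptible mice, and 780–987 in input. Against non-defeated mice, 2 of 5 were called higher. Other lists differed without a call. Of the 6 markers of other interneurons, 5 had a log2 fold change above 0 and 1 below for susceptible against non-defeated mice. An unadjusted p (edgeR) was under 0.05 for 3 of the 5, against 13.3% of all genes. Their summed levels overlapped, with 505–877 CPM in susceptible, 429–635 in non-defeated and 439–794 in resilient mice. All 5 choroid plexus markers and all 6 endothelial markers had a log2 fold change above 0 for susceptible against non-defeated mice, with summed levels of 427–726 against 204–316 CPM and of 20.3–33.7 against 7.64–14.1 CPM, while resilient mice had 164–455 and 12.7–37.8 CPM. All 6 thalamic neuron markers had one below 0 in both comparisons with susceptible mice, with summed levels of 40.6–132 CPM in susceptible, 38.4–303 in non-defeated and 30.8–542 in resilient mice. The part of these lists in the differences of the Wnt genes was not tested.

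In canonical Wnt signaling, a secreted Wnt protein binds a Frizzled receptor and the co-receptor LRP6, and the cytoplasmic Dishevelled proteins (Dvl1, Dvl2 and Dvl3) are recruited to the receptor. Without a Wnt signal, a destruction complex built on the scaffolds Axin and APC lets the kinase GSK3β mark β-catenin, the product of Ctnnb1, for degradation. Dishevelled binds Axin through a shared DIX domain and disables the complex, whereupon β-catenin enters the nucleus and switches on targets such as Axin2, itself an inhibitor of the pathway. In neurons the same proteins also take part in synapse formation, and β-catenin anchors cadherins at the synapse.

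Members are compared with each other per kilobase of exon (RPKM, computed from the normalized CPM), since a long gene collects more reads than a short one. In TRAP libraries of non-defeated mice, Ctnnb1 stood highest with 53.7 ± 16.6 RPKM (SD, n = 4), followed by Gsk3b with 17.6 ± 0.293 and Dvl1 with 11.4 ± 0.718. Dvl3 (7.09 ± 0.706 RPKM) and Axin1 (6.15 ± 0.386) came next and overlapped, as did Apc (4.69 ± 0.550) and Dvl2 (4.54 ± 0.766). Axin2 (0.655 ± 0.0365 RPKM) and Lrp6 (0.502 ± 0.0883) were the lowest and also overlapped. The order was different in input. There Axin1, with 12.6 ± 0.456 RPKM (SD, n = 3), stood clear of Dvl3 (5.68 ± 0.269), and Lrp6 (0.905 ± 0.0464) lay above Axin2 (0.802 ± 0.0523). In susceptible mice, Axin1 (5.10 ± 0.326 RPKM), Apc (4.77 ± 0.312), Dvl3 (4.76 ± 0.125) and Dvl2 (4.72 ± 1.51) formed a run in which each overlapped the next (SD, n = 3).

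The count of members that passed the test differed between comparisons. Tests used edgeR's quasi-likelihood model of all 14 libraries, and a call is an adjusted p (Benjamini-Hochberg, over all genes tested) under 0.05. Between TRAP of non-defeated mice and input, 5 of 9 members were called, 2 higher in TRAP (Dvl3 and Gsk3b) and 3 lower (Axin1, Lrp6 and Dvl1). Of all genes tested, 55.0% were called in this comparison (27.4% higher and 27.6% lower), so the members' count was near the background. The libraries of both groups did not overlap for 6 of 9 members, against 62.0% of all genes. Between resilient and non-defeated mice, edgeR called 0 of 9 members and 0.0% of all genes, and DESeq2 also called 0 members. At an unadjusted p under 0.05 there were 3 members (Axin1, Gsk3b and Dvl1), against 4.38% of all genes, and the same 3 did not overlap between groups, against 2.35%.

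For susceptible mice the 8 members other than Dvl3 were counted. Against non-defeated mice, edgeR and DESeq2 each called 0 of 8, where edgeR called 0.0376% of all genes. At an unadjusted p under 0.05 there was 1 (Axin1, against 13.3% of all genes), and Axin1 was also the only one of the 8 whose groups did not overlap (8.62% of all genes). Against resilient mice, 2 of 8 were called, Axin1 and Dvl1, both lower, where 1.89% of all genes were called and 0.873% were called lower. Their libraries did not overlap, nor did those of Gsk3b, which were higher in susceptible mice, so 3 of 8 were separate, against 15.1% of all genes.

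**Figure D1:**
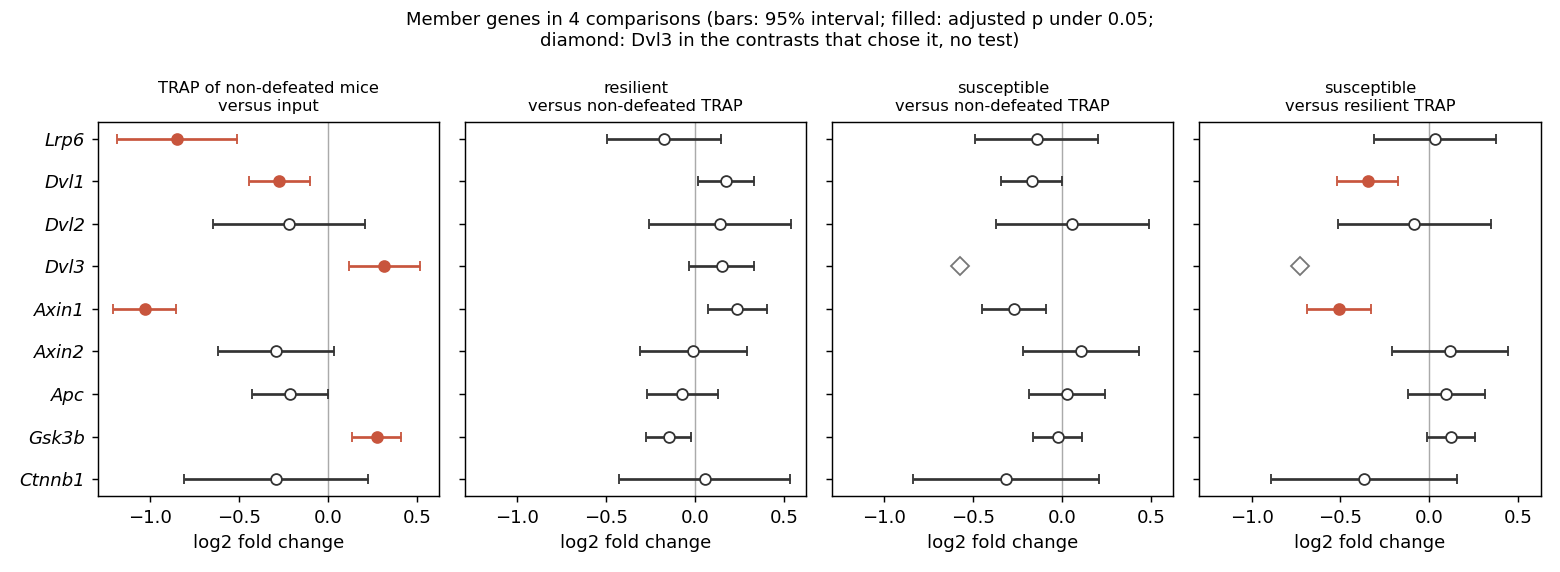
Log2 fold change of each of the 9 member genes (vertical axis) in 4 comparisons, one per panel, with bars for the 95% interval from the edgeR model of 14 libraries. Filled red points passed an adjusted p under 0.05 (5 members in TRAP against input, and Dvl1 and Axin1 in susceptible against resilient), and the open diamonds are Dvl3 in the contrasts that chose it, without a test.

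The Dishevelled genes are scattered over the genome (mm10). Dvl1 lies on the plus strand of chromosome 4 from 155847402 to 155859303, Dvl2 on the plus strand of chromosome 11 from 70000595 to 70012301, and Dvl3 on the plus strand of chromosome 16 from 20516982 to 20534010. Because the proteins are alike, it was checked whether reads of one gene could be counted on another. In the GENCODE transcripts (release 21), the longest run of coding bases that 2 Dishevelled genes share was 21 bases for Dvl1 and Dvl2, and 29 bases for Dvl1 and Dvl3 and for Dvl2 and Dvl3, while the reads were 150 bases long. With noncoding bases included, the longest run was 33 bases, for Dvl1 and Dvl3. The coding runs are shown in capitals, with 15 coding bases of each transcript on either side, to show how soon the genes differ.
Dvl1, in the pair with Dvl2: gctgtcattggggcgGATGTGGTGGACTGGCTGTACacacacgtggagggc
Dvl2, in the pair with Dvl1: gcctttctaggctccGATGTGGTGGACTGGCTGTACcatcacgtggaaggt
Dvl1, in the pair with Dvl3: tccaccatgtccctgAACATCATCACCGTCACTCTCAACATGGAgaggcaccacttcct
Dvl3, in the pair with Dvl1: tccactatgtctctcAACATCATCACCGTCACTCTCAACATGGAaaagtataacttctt
Dvl2, in the pair with Dvl3: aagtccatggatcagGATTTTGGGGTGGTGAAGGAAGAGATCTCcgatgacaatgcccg
Dvl3, in the pair with Dvl2: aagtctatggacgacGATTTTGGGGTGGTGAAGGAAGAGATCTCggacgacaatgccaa
The run of Dvl1 and Dvl2 is exonic at chr4:155856367-155856387 and chr11:70008286-70008306, and the other runs cross an exon junction. Of all 50-base words in the transcripts of Dvl1, 0% occurred in a transcript of another gene on either strand, against 1.43% for Dvl3. For Dvl2 12.2% occurred in Acadvl, a mitochondrial fatty acid oxidation enzyme on the opposite strand, with which Dvl2 shares 1151 bp of exon. The library kit does not mark strand, so reads from that stretch of Dvl2 and Acadvl cannot be told apart.

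The 250 bases before the start of each Dishevelled gene are shown because Dvl1 was called lower in susceptible than in resilient mice, Dvl3 was chosen for its low values there, and Dvl2 was not called. They are taken from RefSeq (GRCm38.p6, plus strand), and capitals mark the letters GGGCGG or their reverse complement CCGCCC, the core of a GC box.
Dvl1, chr4:155847152-155847401: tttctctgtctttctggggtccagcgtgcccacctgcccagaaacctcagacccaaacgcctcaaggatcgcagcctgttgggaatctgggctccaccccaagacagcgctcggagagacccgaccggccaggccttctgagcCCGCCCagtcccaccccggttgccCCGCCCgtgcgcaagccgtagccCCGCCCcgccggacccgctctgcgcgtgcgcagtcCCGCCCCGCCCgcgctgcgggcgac
Dvl2, chr11:70000342-70000591: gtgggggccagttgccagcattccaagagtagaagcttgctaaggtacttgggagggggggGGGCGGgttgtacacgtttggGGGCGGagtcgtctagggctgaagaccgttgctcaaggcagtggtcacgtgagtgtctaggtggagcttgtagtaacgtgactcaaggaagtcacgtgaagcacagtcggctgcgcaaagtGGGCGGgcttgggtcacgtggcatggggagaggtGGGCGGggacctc
Dvl3, chr16:20516736-20516985: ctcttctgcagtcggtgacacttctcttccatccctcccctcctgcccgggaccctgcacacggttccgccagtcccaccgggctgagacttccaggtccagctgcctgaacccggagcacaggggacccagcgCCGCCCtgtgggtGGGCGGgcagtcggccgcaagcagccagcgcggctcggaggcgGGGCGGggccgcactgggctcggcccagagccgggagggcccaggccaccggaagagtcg
The Dvl1 window held 5 GC boxes (of which 2 overlap by a base), the Dvl2 window 4 and the Dvl3 window 3. Of the 32851 promoters in the table, 32.7% held at least 1 in the same 250 bases. The GC content of the windows was 71.2% for Dvl1, 60.8% for Dvl2 and 72.8% for Dvl3, against a median of 52.4%. None of the 3 windows held CCAAT (33.9% of all promoters), TATAAA (12.4%) or CTTTGAT, letters bound by TCF/LEF factors (3.21%), on either strand. Of the 9 members, 6 had an entry in the table.

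Dvl3 was the member that defined the set. In non-defeated mice it had 43.81, 40.23, 46.88 and 50.88 normalized CPM in libraries 11, 1, 6 and 9. The resilient libraries 3, 5, 7 and 8 had 49.90, 46.00, 49.92 and 55.94 CPM. The susceptible libraries 10, 2 and 4 had 29.57, 31.00 and 30.89 CPM. All 3 susceptible libraries thus lay below every other library, and the closest values on either side of that gap were 31.00 CPM in susceptible and 34.45 CPM in input. The input libraries 12, 13 and 14, with 37.46, 34.45 and 37.41 CPM, lay between the susceptible and the non-defeated libraries. Described without a test, the log2 fold change of Dvl3 was -0.58 from non-defeated to susceptible mice and -0.73 from resilient to susceptible mice, so the level in susceptible mice was 0.67 and 0.60 of theirs. The comparisons that do not involve susceptible mice were tested. Relative to input, Dvl3 was higher in non-defeated TRAP libraries (log2 fold change 0.32, standard error 0.093, adjusted p = 0.00938), a call that was lost without input library 13 (adjusted p = 0.0502). Between resilient and non-defeated mice the log2 fold change was 0.15 (95% interval -0.03 to 0.33), with an unadjusted p of 0.0989. In bulk samples, fewer cells of a type and less RNA per cell cannot be told apart by a gene's level alone. Of the 6 PV neuron markers, 0 were called between susceptible and resilient mice, and the part of cell number in the level of Dvl3 was not tested. Gm16618, an antisense gene that overlaps Dvl3 without sharing exon bases, had 0.05 to 0.34 CPM in every library.

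**Figure D2:**
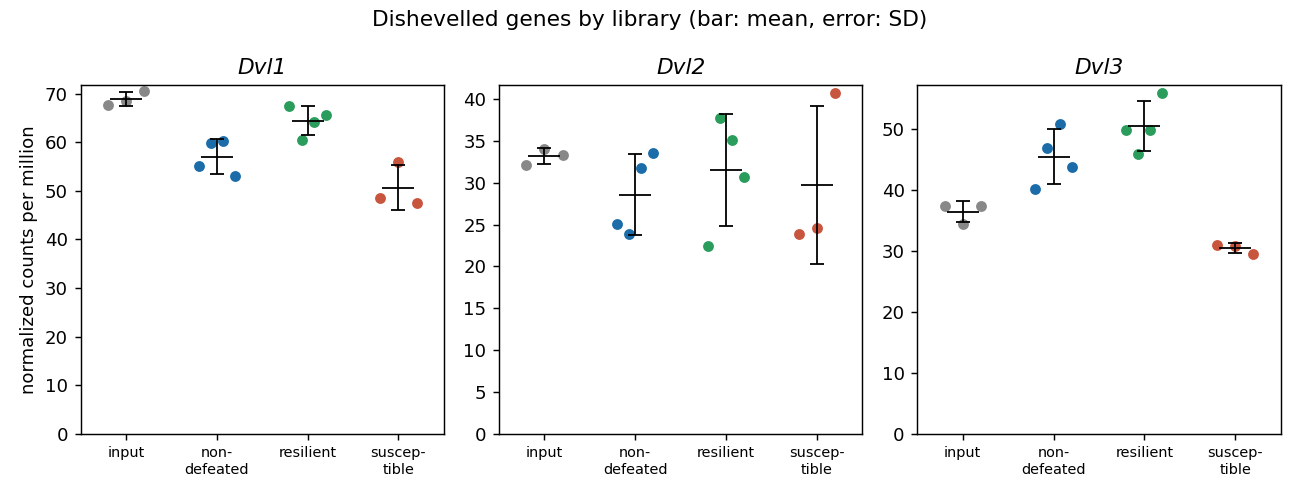
Normalized CPM (vertical axis, from 0) of Dvl1, Dvl2 and Dvl3 in each library, by group (3 input, 4 non-defeated, 4 resilient and 3 susceptible), with the mean and SD in black. The susceptible libraries of Dvl3 lie between 29.57 and 31.00 and below all others. Those of Dvl1 lie below all resilient libraries, and those of Dvl2 overlap the other groups.

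Dvl1, the Dishevelled gene with the highest level, had its 3 TRAP groups in the same order as Dvl3. The distances of susceptible mice from the other 2 groups were smaller than for Dvl3. That between resilient and non-defeated mice was not (log2 fold change 0.18 for Dvl1 and 0.15 for Dvl3). It had 52.96, 55.08, 59.89 and 60.20 CPM in non-defeated libraries 11, 1, 6 and 9. In resilient libraries 3, 5, 7 and 8 it had 67.40, 60.43, 64.20 and 65.63 CPM. The susceptible libraries 10, 2 and 4 had 47.51, 48.52 and 55.96 CPM. Every susceptible library was below every resilient one, and every resilient library was above every non-defeated one, while 1 susceptible library (55.96) lay among the non-defeated. Dvl1 was lower in susceptible than in resilient mice (log2 fold change -0.35, standard error 0.081, adjusted p = 0.0468), or 21.3% lower. This call was close to the threshold: it was lost in 5 of 8 other settings (no filter on low counts, RLE size factors, an offset for GC content, both groups alone and the 11 TRAP libraries alone; adjusted p = 0.0616 to 0.163) and without any 1 of the 7 libraries compared (0.0522 to 0.175). It was kept with DESeq2 (adjusted p = 0.0408), with at least 10 counts in every library (0.0384) and in the 11 TRAP libraries with the sample number as a covariate (0.0388), and the log2 fold change stayed between -0.42 and -0.29 throughout. Transcripts of Dvl1, Axin1 and Dvl3 had a GC content of 59.3%, 56.6% and 55.2%, and the 3672 genes between 55% and 60% had a median log2 fold change of -0.05 in the same comparison, while with the GC offset that of Dvl1 was -0.29. Set against non-defeated mice, Dvl1 had a log2 fold change of 0.18 in resilient mice (unadjusted p = 0.0329, adjusted p = 1) and -0.17 in susceptible mice (unadjusted p = 0.0521, adjusted p = 0.378), neither of which passed. In input, libraries 12, 13 and 14 had 67.69, 68.36 and 70.54 CPM, above all non-defeated TRAP libraries (log2 fold change of TRAP against input -0.27, standard error 0.080, adjusted p = 0.0100).

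Dvl2 varied within groups more than between them. It had 33.57, 25.07, 23.86 and 31.81 CPM in non-defeated libraries 11, 1, 6 and 9. Resilient libraries 3, 5, 7 and 8 had 22.44, 37.71, 35.16 and 30.70 CPM, and susceptible libraries 10, 2 and 4 had 40.68, 23.94 and 24.56 CPM. Each TRAP group held low and high libraries, and the highest and the third lowest values were both from susceptible mice. The log2 fold change was 0.14 (95% interval -0.26 to 0.54) for resilient and 0.06 (-0.37 to 0.49) for susceptible against non-defeated mice. Between susceptible and resilient mice it was -0.08 (-0.51 to 0.35), an interval that holds both 0 and the estimate of Dvl1. In input the 3 libraries had 32.13, 34.05 and 33.37 CPM, and no difference of TRAP from input was called (log2 fold change -0.22, adjusted p = 0.378).

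The makeup of the Dishevelled RNA can be read per length. In non-defeated mice, Dvl1 made 49.6% ± 2.68, Dvl2 19.7% ± 2.93 and Dvl3 30.7% ± 1.14 of the summed RPKM of the 3 genes (SD, n = 4). Resilient mice had nearly the same shares, 50.1% ± 2.87, 19.4% ± 4.04 and 30.5% ± 1.85 (SD, n = 4). In susceptible mice Dvl3 made 24.3% ± 1.98 and in input 23.0% ± 0.951 (SD, n = 3 each), and the first of these shares rests on the values that chose the set, so it is given as a description. The summed level was 23.0 ± 1.55 RPKM in non-defeated, 25.8 ± 0.869 in resilient and 19.6 ± 1.15 in susceptible mice.

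The members of the destruction complex differed from each other in their pattern. Axin1, the constitutive scaffold, lies on the plus strand of chromosome 17 from 26138688 to 26195811. It had 22.16, 22.62, 24.02 and 25.43 CPM in non-defeated libraries 11, 1, 6 and 9. Resilient libraries 3, 5, 7 and 8 had 28.81, 29.10, 25.90 and 27.35 CPM, and susceptible libraries 10, 2 and 4 had 19.74, 20.65 and 18.19 CPM. The 3 TRAP groups were fully separate, with susceptible mice lowest, non-defeated mice in the middle and resilient mice highest. Axin1 was lower in susceptible than in resilient mice (log2 fold change -0.51, standard error 0.084, adjusted p = 0.0227), or 29.7% lower. This call held under DESeq2 (adjusted p = 0.00126) and with an offset for GC content (adjusted p = 0.0361). It was lost in the fit of both groups alone (adjusted p = 0.136), in the fit of the 11 TRAP libraries alone (0.0834; 0.0200 when the sample number was a covariate there), and without resilient library 3, 7 or 8 or susceptible library 2 or 4 (0.0505 to 0.0883). Against non-defeated mice, neither the difference of resilient mice (log2 fold change 0.24, unadjusted p = 0.00759, adjusted p = 1) nor that of susceptible mice (-0.27, unadjusted p = 0.00580, adjusted p = 0.217) was called. The 4 non-defeated libraries enter both of these comparisons.

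Axin1 was also the member with the largest difference between TRAP and input. In input libraries 12, 13 and 14 it had 46.22, 49.60 and 48.65 CPM, above every TRAP library. The log2 fold change of TRAP against input was -1.03 (standard error 0.082, adjusted p = 1.62e-07), or 51.1% lower. None of the 50-base words of its transcripts occurred in another gene, and its longest coding run shared with Axin2 was 21 bases.
Axin1, in the pair with Axin2: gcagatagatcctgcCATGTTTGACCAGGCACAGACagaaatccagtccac
Axin2, in the pair with Axin1: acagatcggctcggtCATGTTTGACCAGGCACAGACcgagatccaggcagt
The run, in capitals, is exonic at chr17:26143238-26143258 in Axin1 and chr11:108923794-108923814 in Axin2 (plus strand, mm10).

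Gsk3b, the kinase of the complex (chromosome 16, plus strand, 38089001 to 38246084), had the narrowest range of the 9 members across TRAP libraries, with the highest library at 1.17 times the lowest. Its libraries of non-defeated mice, 11, 1, 6 and 9, had 172.90, 177.53, 170.71 and 172.80 CPM, a coefficient of variation of 1.66%. Resilient libraries 3, 5, 7 and 8 had 153.55, 156.92, 155.44 and 160.90 CPM, and susceptible libraries 10, 2 and 4 had 179.55, 168.64 and 163.27 CPM. All resilient libraries lay below all libraries of the other TRAP groups, whereas those of Axin1 and Dvl1 lay above them. The difference was small and not called: the log2 fold change was -0.15 for resilient against non-defeated mice (unadjusted p = 0.0262, adjusted p = 1) and 0.12 for susceptible against resilient mice (95% interval -0.02 to 0.26, adjusted p = 0.296). Susceptible and non-defeated mice overlapped (-0.03, 95% interval -0.16 to 0.11). Input had 150.59, 134.95 and 144.20 CPM in libraries 12, 13 and 14, and Gsk3b was higher in TRAP than in input (log2 fold change 0.28, standard error 0.064, adjusted p = 0.00220).

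Apc, the large scaffold on chromosome 18, had 79.40, 63.14, 75.78 and 83.74 CPM in non-defeated libraries 11, 1, 6 and 9. It had 65.24, 78.61, 67.95 and 75.74 CPM in resilient libraries 3, 5, 7 and 8, and 72.84, 82.52 and 75.34 CPM in susceptible libraries 10, 2 and 4. The 3 groups overlapped. For susceptible against resilient mice the log2 fold change was 0.10 (95% interval -0.12 to 0.31). Input had 82.88, 88.61 and 90.64 CPM, and the difference of TRAP from input (-0.21, adjusted p = 0.0881) was called only with at least 10 counts required in every library (adjusted p = 0.0494) and without non-defeated library 9 (0.0447).

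Lrp6, the co-receptor at the head of the pathway (chromosome 6, minus strand, 134446476 to 134566965), was low in PV neuron RNA. It had 5.96, 6.94, 6.02 and 8.55 CPM in non-defeated libraries 11, 1, 6 and 9. Input libraries 12, 13 and 14 had 11.68, 12.93 and 12.51 CPM. All input libraries lay above all TRAP libraries, and Lrp6 was lower in TRAP than in input by 44.5% (log2 fold change -0.85, standard error 0.159, adjusted p = 0.000402). Resilient libraries had 5.32 to 7.11 CPM and susceptible libraries 5.22 to 7.14 CPM. The groups overlapped almost entirely, with a log2 fold change of 0.03 (95% interval -0.31 to 0.38) for susceptible against resilient mice.

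Axin2 (chromosome 11, plus strand, 108920349 to 108950783), commonly read as a target of β-catenin, was the member with the fewest reads (228 to 399 per library). It had 3.79, 3.47, 3.76 and 3.39 CPM in non-defeated libraries 11, 1, 6 and 9, 2.93, 3.55, 3.67 and 4.18 CPM in resilient libraries 3, 5, 7 and 8, and 4.37, 4.07 and 3.21 CPM in susceptible libraries 10, 2 and 4. The groups overlapped, and the log2 fold change for susceptible against resilient mice was 0.12 with a 95% interval of -0.21 to 0.44. Input had 4.68, 4.46 and 4.11 CPM, above all non-defeated TRAP libraries, but the difference (-0.29) was not called (adjusted p = 0.116). Gm11670, an antisense gene that shares 209 bp of exon with Axin2, had 0.12 to 0.46 CPM.

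Ctnnb1, the gene of β-catenin (chromosome 9, plus strand, 120929216 to 120960507), had the highest level and the widest range across TRAP libraries. Its highest TRAP library was at 2.07 times the lowest. Non-defeated libraries 11, 1, 6 and 9 had 331.28, 196.53, 216.22 and 372.24 CPM. Resilient libraries 3, 5, 7 and 8 had 179.92, 324.93, 361.51 and 292.94 CPM, and susceptible libraries 10, 2 and 4 had 281.95, 183.23 and 207.88 CPM. In each group the values fell on both sides of a gap between 216.22 and 281.95 CPM. The coefficient of variation was 30.8% in non-defeated, 27.1% in resilient and 22.9% in susceptible mice (where that of Dvl2 was 31.9%). For Ctnnb1 in input it was 6.43% (346.30, 317.77 and 360.95 CPM in libraries 12, 13 and 14). No difference between groups was detectable over this spread: the log2 fold change for susceptible against resilient mice was -0.37, with a 95% interval of -0.89 to 0.15, and that of TRAP against input was -0.29 (-0.81 to 0.23).

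**Figure D3:**
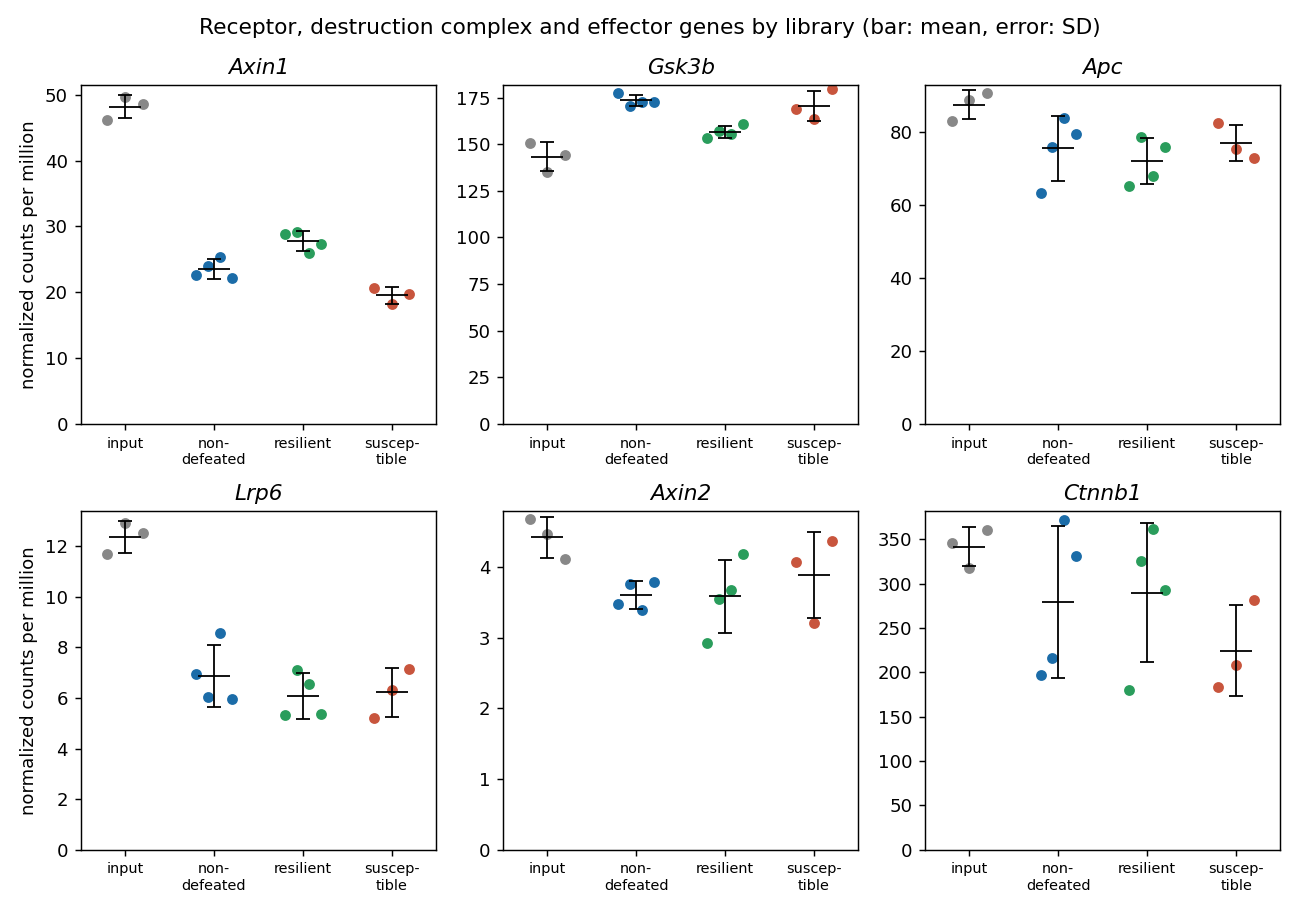
Normalized CPM (vertical axes, from 0) of Axin1, Gsk3b, Apc, Lrp6, Axin2 and Ctnnb1 in each library, by group (3 input, 4 non-defeated, 4 resilient and 3 susceptible), with the mean and SD in black. Axin1 separates all groups, the resilient libraries of Gsk3b (153.55 to 160.90) lie below the other TRAP libraries, and Ctnnb1 spreads from 179.92 to 372.24 across TRAP libraries.

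The libraries that were high in Ctnnb1 were also high in Dvl2. The 6 TRAP libraries with the highest Ctnnb1 were those numbered 5, 7, 8, 9, 10 and 11, and they had 30.70 to 40.68 CPM of Dvl2. The other 5, numbered 1, 2, 3, 4 and 6, had 22.44 to 25.07 CPM. These sets were formed from the values and cross the 3 groups, so they are a description of the libraries and not a comparison. Acadvl, which shares exon bases with Dvl2, had 48.58 to 62.16 CPM in the first libraries and 32.02 to 37.31 CPM in the others. Ulk4, a kinase gene on the opposite strand that shares 759 bp of exon with Ctnnb1, overlapped between them (28.79 to 45.98 and 21.26 to 36.80 CPM). Dvl1, Dvl3 and Axin1 did not follow this division: Dvl3, for example, had 29.57 to 55.94 and 30.89 to 49.90 CPM. The labels name no batch, and what sets the libraries apart was not tested.

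**Figure D4:**
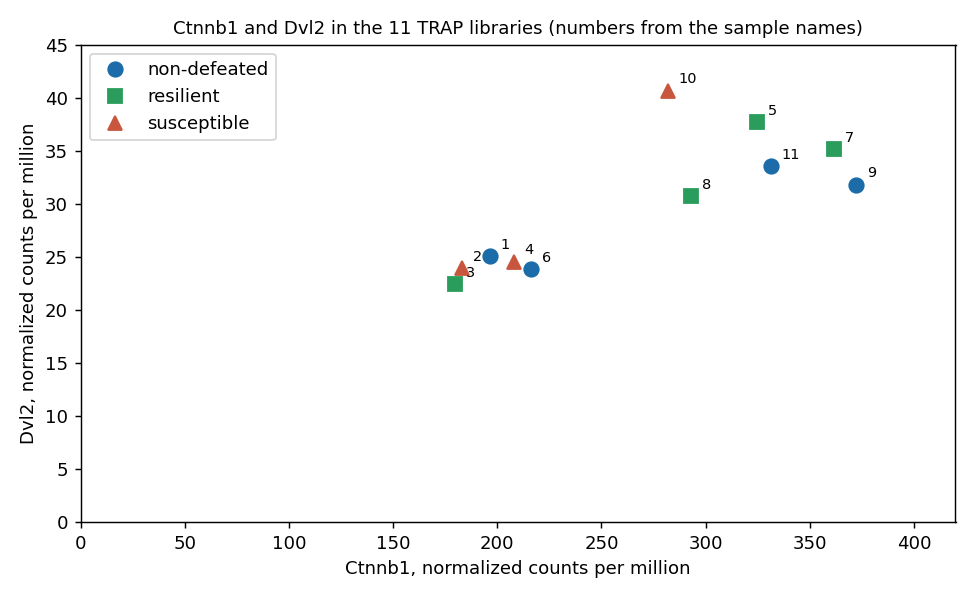
Ctnnb1 (horizontal axis) against Dvl2 (vertical axis), both in normalized CPM, in the 11 TRAP libraries, with the number in the sample name beside each point and the group by color and shape. Libraries 1, 2, 3, 4 and 6 lie at 179.92 to 216.22 CPM of Ctnnb1 and the other 6 at 281.95 to 372.24 CPM, and each set holds libraries of all 3 groups.

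Over the 11 TRAP libraries, Axin1 and Dvl1 were the members most like Dvl3 in log2 CPM, with Pearson's r of 0.88 and 0.86. They ranked at places 142 and 201 among all genes tested. The ranks rest on the Dvl3 values that chose the set, so genes lower in susceptible mice tend to rank high. They are given as a description. With each group's mean removed, r was 0.28 for Axin1 and 0.59 for Dvl1, so much of the first likeness was carried by the group means. The other members had r of 0.42 (Ctnnb1), 0.06 (Dvl2), 0.00 (Lrp6), -0.10 (Apc), -0.24 (Axin2) and -0.46 (Gsk3b). After the same removal of group means, r was 0.53 for Apc, above that of Axin1. For the rest of these members it lay between -0.17 (Gsk3b) and 0.23 (Ctnnb1). The 5 genes closest to Dvl3 were Gm47512 (0.98), 4930500M09Rik (0.97), Gm24157 (0.96), B930094E09Rik (0.95) and ENSMUSG00000078936 (0.95). With group means removed, Gm47512 kept an r of 0.95 and the other 4 had 0.56 to 0.77. These values describe libraries that share groups, and no test was made of them.

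The rest of the pathway was read from 124 further Wnt genes in 10 lists, of which 119 were tested. In TRAP of non-defeated mice against input, 72 of 119 (60.5%) were called, near the 55.0% of all genes, 21 higher and 51 lower, and their median log2 fold change was -0.57 against -0.04 for all genes. The called genes were thus mostly lower in TRAP, while all genes were split about evenly. Of 16 Wnt ligands tested, 2 were higher and 8 lower. Wnt5b and Wnt5a, ligands known mainly for signaling without β-catenin, were the higher ones. Wnt5b had 9.19 ± 1.27 CPM in TRAP (SD, n = 4) and 1.14 ± 0.191 in input (SD, n = 3), which put the log2 fold change between 2.42 and 3.58 (95% interval, adjusted p = 5.20e-07). Wnt5a had 10.7 ± 3.57 and 4.82 ± 0.473 CPM, a log2 fold change of 1.15 (adjusted p = 0.00201). Wnt7b, a ligand of the canonical branch in the brain, went the other way, with 12.1 ± 1.84 and 46.6 ± 3.50 CPM (log2 fold change -1.95, adjusted p = 1.16e-06).

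Receptors and inhibitors were divided. Of 19 receptors and co-receptors tested, 3 were higher and 5 lower: the kinase Musk rose (log2 fold change 2.39, standard error 0.49) from a level of only 0.295 ± 0.146 CPM in input, and Ryk, a Wnt receptor related to kinases, fell (-1.34, standard error 0.148). Of 13 secreted and membrane inhibitors, 3 were higher and 5 lower. Sfrp2, a secreted Wnt antagonist, was higher (log2 fold change 1.82, standard error 0.239), as was Kremen2, a receptor of Dickkopf proteins (1.04, standard error 0.220). Dkk3, a divergent Dickkopf protein, had 30.5 ± 7.63 CPM in TRAP and 152 ± 13.9 in input and was lower (-2.32, standard error 0.228). In the R-spondin branch, 1 gene was higher and 5 were lower of 9, and in Wnt secretion 0 of 4 were called, with 0 at an unadjusted p under 0.05.

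Of the 16 partners of Dishevelled, 3 were higher in TRAP and 9 lower. Cxxc4, which binds Dishevelled and inhibits the pathway, had 20.6 ± 0.980 CPM in TRAP against 9.95 ± 0.991 in input, a log2 fold change of 1.05 (adjusted p = 2.88e-06), and Dact3, another inhibitor that binds Dishevelled, was higher too (0.46, standard error 0.095). Dixdc1, which carries a DIX domain like Dishevelled and Axin, had 22.5 ± 2.67 CPM in TRAP and 77.5 ± 1.98 in input (-1.78, adjusted p = 2.43e-08). Ankrd6, which acts with Dishevelled in planar polarity, and Nkd1, a feedback inhibitor, were lower as well (-1.61, standard error 0.170, and -1.12, standard error 0.129). Of 12 regulators of the destruction complex, 3 were higher and 6 lower, among them the casein kinase Csnk1g1 (-1.10, standard error 0.111) and the tankyrase Tnks2 (-1.35, standard error 0.151), an enzyme that marks Axin for degradation. Of 14 nuclear effectors, 4 were higher, with Ctnnbip1, an inhibitor of β-catenin, at 0.52 (standard error 0.079), and 5 were lower. The planar cell polarity list had 2 higher and 4 lower of 10, and the target genes 0 higher and 4 lower of 6.

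**Figure D5:**
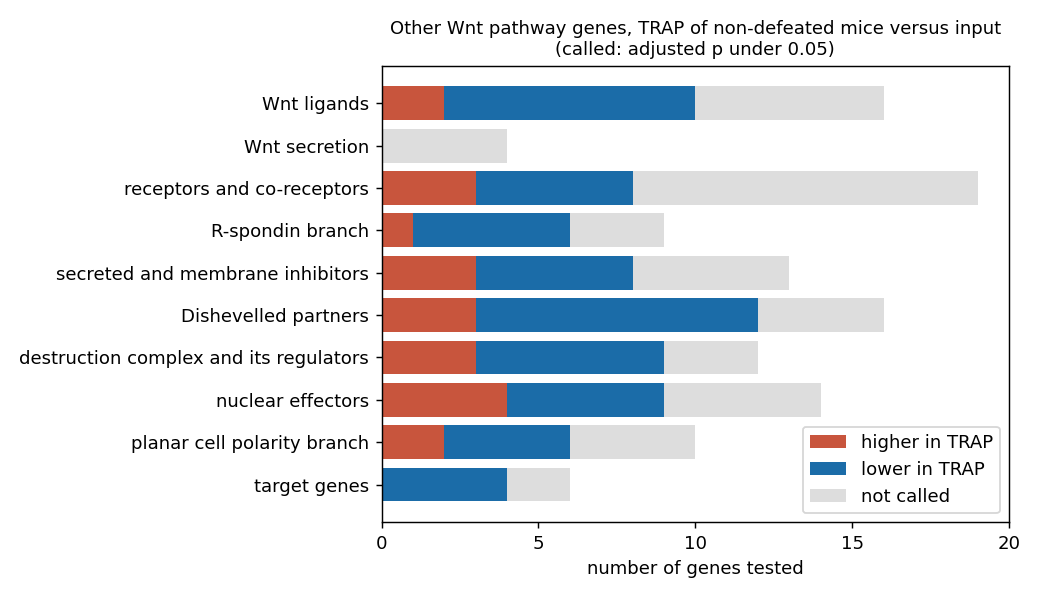
Number of genes tested (horizontal axis) in each of 10 lists of other Wnt pathway genes that were called higher, called lower or not called between TRAP of non-defeated mice and input (edgeR, adjusted p under 0.05). In all, 21 were higher and 51 lower of 119.

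Between the stress groups the rest of the pathway was nearly without calls. Between resilient and non-defeated mice, edgeR and DESeq2 each called 0 of 119, and 5 had an unadjusted p under 0.05 (4.38% of all genes). The smallest p in each direction belonged to Nkd1, with 11.9 ± 1.64 CPM in resilient and 8.89 ± 1.17 in non-defeated mice (log2 fold change 0.42, unadjusted p = 0.00380, adjusted p = 1), and to Znrf3, a ubiquitin ligase that removes Frizzled (-0.54, unadjusted p = 0.0226, adjusted p = 1). Between susceptible and non-defeated mice, edgeR and DESeq2 again each called 0, and 16 had an unadjusted p under 0.05, 6 higher and 10 lower, a share near the 13.3% of all genes. Btrc, the ubiquitin ligase subunit that recognizes phosphorylated β-catenin, had the smallest p among the lower ones, with 118 ± 5.52 CPM in susceptible and 147 ± 13.4 in non-defeated mice (-0.31, adjusted p = 0.157). Usp34, a deubiquitinase of Axin, had the smallest among the higher ones (0.35, adjusted p = 0.236).

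Between susceptible and resilient mice, 1 of 119 was called, against 1.89% of all genes, and 18 had an unadjusted p under 0.05, a share below the 20.9% of all genes. The called gene was Usp34. It had 37.61, 55.39, 45.96 and 42.00 CPM in resilient libraries 3, 5, 7 and 8, and 70.36, 64.22 and 57.66 CPM in susceptible libraries 10, 2 and 4. All susceptible libraries lay above all resilient ones, and the log2 fold change was 0.50 (standard error 0.113, adjusted p = 0.0427). The median over the 119 genes was -0.05, against 0.00 for all genes tested. The count was 0 to 4 under the other settings and did not stay at 1 without resilient library 3, 7 or 8 or without any of the susceptible libraries, where it was 0.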

How the data were processed

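TRAP RNA of hippocampal PV neurons (4 non-defeated, 4 resilient and 3 susceptible mice) and total RNA of 3 input samples were converted to full-length cDNA with SMART-Seq v4, made into Nextera XT libraries and sequenced as single reads of 150 bases. The authors deposited raw read counts per gene, without normalization, after trimming with fastp and alignment to mm10 with STAR; the submitters' processing notes name STAR 2.5.3a and, with no role, HTSeq. The gene annotation and strand setting of the counting are not given in the sources used here. No column of the count table was left unused (0 columns).

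Identifiers were named from GENCODE mouse release 21 (37693 of 39017; the rest held 0.824% of counts). In R 4.3.3, edgeR 4.0.16 with TMM normalization and its default filter (21298 genes kept) fitted 1 quasi-likelihood model to all 14 libraries, with 2-sided tests and Benjamini-Hochberg adjustment; intervals are 95%. CPM and RPKM use TMM-scaled library sizes and the union of exons. Each sample is 1 mouse by the labels. The members and gene lists were chosen with earlier results of these data known. Besides the members, the text names the other Wnt genes with the smallest p among those called (8 per direction for TRAP against input, 4 otherwise, or 1 per direction where none was called), the 5 genes most like Dvl3 and the genes that overlap a member. Alternatives were RLE size factors, 2 other filters, DESeq2 1.42.0, fits with fewer libraries, a GC offset, the sample number as a covariate and leaving out each library. The fit was tested on simulated data. Library totals of 64110214 to 94726962 gave members 228 to 32333 reads, and counting error is part of the spread that the tests use.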

Additional observations from a re-analysis of the deposited data

Results flagged for a closer look

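Axin1 and Dvl1 are listed because defeated mice moved to opposite sides of the non-defeated mice and the difference of both effects, which is the susceptible against resilient comparison, was called. For Axin1 that difference was -0.51 on the log2 scale and for Dvl1 -0.35 (edgeR, adjusted p = 0.0227 and 0.0468). The effects against non-defeated mice were 0.24 and -0.27 for Axin1 and 0.18 and -0.17 for Dvl1 (resilient, then susceptible), and none of them was called by itself. Higher or lower than every non-defeated library were 4 of 4 resilient and 3 of 3 susceptible libraries for Axin1, and 4 of 4 and 2 of 3 for Dvl1. A library far from the others of its group was looked for, member by member, in non-defeated and resilient mice. In these 18 sets of 4 values 0 were found, where chance would mark about 1 in 20. The sets reuse the same libraries. Input and susceptible libraries, with 3 per group, were not checked.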

How the results depend on the processing

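No paired analysis was possible because the groups share no sample number. Of the members other than Dvl3, 2 were called between susceptible and resilient mice; 1 was called with RLE size factors, with no filter on low counts and with the GC offset, 0 in the fit of both groups alone and in that of the 11 TRAP libraries, and 0 to 1 when a library was left out. Of the other Wnt genes, 1 was called in that comparison; 0 were called with no filter, in the fit of both groups alone and in that of the 11 TRAP libraries, 2 with at least 10 counts in every library, 4 with DESeq2, 4 in the 11 TRAP libraries with the sample number as a covariate, and 0 to 1 when a library was left out. The counts of members and other Wnt genes in the other comparisons stayed within 1.5 times, and no called member changed direction. The background moved too: of all genes, 403 were called between susceptible and resilient mice, but 126 with no filter, 178 with the GC offset, 0 in the fit of both groups, 1 in that of the TRAP libraries, 991 with DESeq2, 1109 in the TRAP libraries with the sample number as a covariate, and 6 to 1058 when a library was left out. Between susceptible and non-defeated mice 8 were called, 13 with RLE size factors, 16 with at least 10 counts, 5 in the fit of both groups, 114 with DESeq2, 0 in the fit of the TRAP libraries with and without the sample number, and 0 to 6 when a library was left out. The causes were not tested. The described log2 fold change of Dvl3 stayed between -0.77 and -0.67 against resilient and between -0.63 and -0.52 against non-defeated mice. The lowest count of a member was 228 reads. The spread within groups, of which counting error is a part, gave Ctnnb1 the widest intervals. How far depth limited each member was not tested.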
